A study of Arabidopsis thaliana with 6 samples.

Results

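The transcripts described here are those of 10 genes that carry the ethylene signal in Arabidopsis thaliana, found by their locus identifiers among the 33602 loci of the count files. They are the 5 receptor genes ETR1 (AT1G66340), ERS1 (AT2G40940), ETR2 (AT3G23150), ERS2 (AT1G04310) and EIN4 (AT3G04580), the kinase gene CTR1 (AT5G03730), EIN2 (AT5G03280), the transcription factor gene EIN3 (AT3G20770), and the F-box genes EBF1 (AT2G25490) and EBF2 (AT5G25350). The comparison was between 3 wild-type libraries of ecotype Col-0 and 3 libraries of the quintuple mutant snl1/2/3/4/5 in the same ecotype, hit in 5 SIN3-LIKE genes, whose alleles the labels do not give. Both groups were RNA from above-ground parts of seedlings 11 days old, grown at about 22 °C in 16 h light and 8 h dark and collected at ZT5, which is 5 h after lights on. Per its title the study asked how SIN3-LIKE genes act on flowering, and ethylene is not named there.

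Ethylene is a gaseous hormone sensed by receptors in the endoplasmic reticulum membrane. Receptors without ethylene keep the Raf-like kinase CTR1 active, and CTR1 phosphorylates EIN2 and holds it at that membrane. When ethylene binds, the receptors and CTR1 fall silent, part of EIN2 is cleaved off, and the transcription factors EIN3 and EIL1 accumulate because their destruction through the F-box proteins EBF1 and EBF2 is blocked. The receptors therefore act as negative regulators, and transcripts of ETR2, ERS1, ERS2 and EBF2 are known to rise after ethylene treatment. SIN3-LIKE proteins are relatives of yeast Sin3, a scaffold for histone deacetylases, and SNL1 and SNL2 are known in seeds for acting on the balance of abscisic acid and ethylene.

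Libraries held 12622416 to 15774357 counted reads. The 5 mutated genes were lower in the mutant, from 1.89-fold for SNL5 to 23.7-fold for SNL2. Mutant replicate 3 kept the most transcript of each. For SNL2 and SNL3 it kept 7.72% and 9.16% of the wild-type mean, against 2.37% to 3.33% in replicates 1 and 2. For SNL1 it kept 41.9% against 30.2% and 32.9%, and for SNL4 23.2% against 11.7% and 13.4%. SNL5 differed little (50.6% to 54.3%). Over all genes tested, log2 CPM of mutant replicate 3 correlated more closely with each wild-type library (0.959 to 0.969) than mutant replicates 1 and 2 did (0.950 to 0.961). As a check of the tissue label, 6 photosynthesis markers summed to between 41161 and 51181 CPM (counts scaled to the TMM-scaled library total), and 6 root markers to 25.8 to 31.0 CPM in the wild-type libraries and 31.9 to 43.5 CPM in the mutant. The root marker that passed the test was IRT1, an iron transporter gene named after its values were seen, at 10.6 CPM in the wild-type libraries and 19.9 CPM in the mutant ones (adjusted p = 0.00849, edgeR). Without it the root markers summed to 16.7 to 17.4 CPM in wild type and 14.7 to 19.0 CPM in the mutant, which overlap. A list of 6 floral markers summed to 8.00 to 8.83 CPM in the wild-type libraries and 20.2 to 35.2 CPM in the mutant. Of these, PI accounted for most of the mutant sum, and AP1 had 1 read over all 6 libraries. No root or floral marker was at 0 in every library, and the part of these markers in the values below was not tested. In whole shoots, fewer cells of a type and less RNA per cell cannot be told apart.

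All 10 genes passed the filter on low counts, 1 was lower in the mutant, none was higher, and 9 did not pass the test (edgeR quasi-likelihood test, adjusted p below 0.05 over all genes tested). ETR2 was the gene that fell, by 23.2%. Over all 19591 genes tested, 34.8% passed, with 18.3% higher and 16.5% lower in the mutant. The 1 call among 10 genes is below that background share. At an unadjusted p under 0.05 none of the 10 was higher either, and limma-voom and DESeq2 also called none higher. The median log2 fold change of the 10 genes was −0.03, with 5 values below 0, and the median over all genes tested was 0.00027. Regardless of sign, the median size was 0.07 for the 10 genes and 0.27 for all genes tested. The genes tested were not matched to the 10 for level. Their median size depended on the filter, at 0.34 with no filter on low counts and 0.26 with at least 1 CPM in 3 libraries. None of the 10 is in the authors' deposited tables of 480 lower and 695 higher genes, whose smallest change was 1.00 on the log2 scale.

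**Figure D1:**
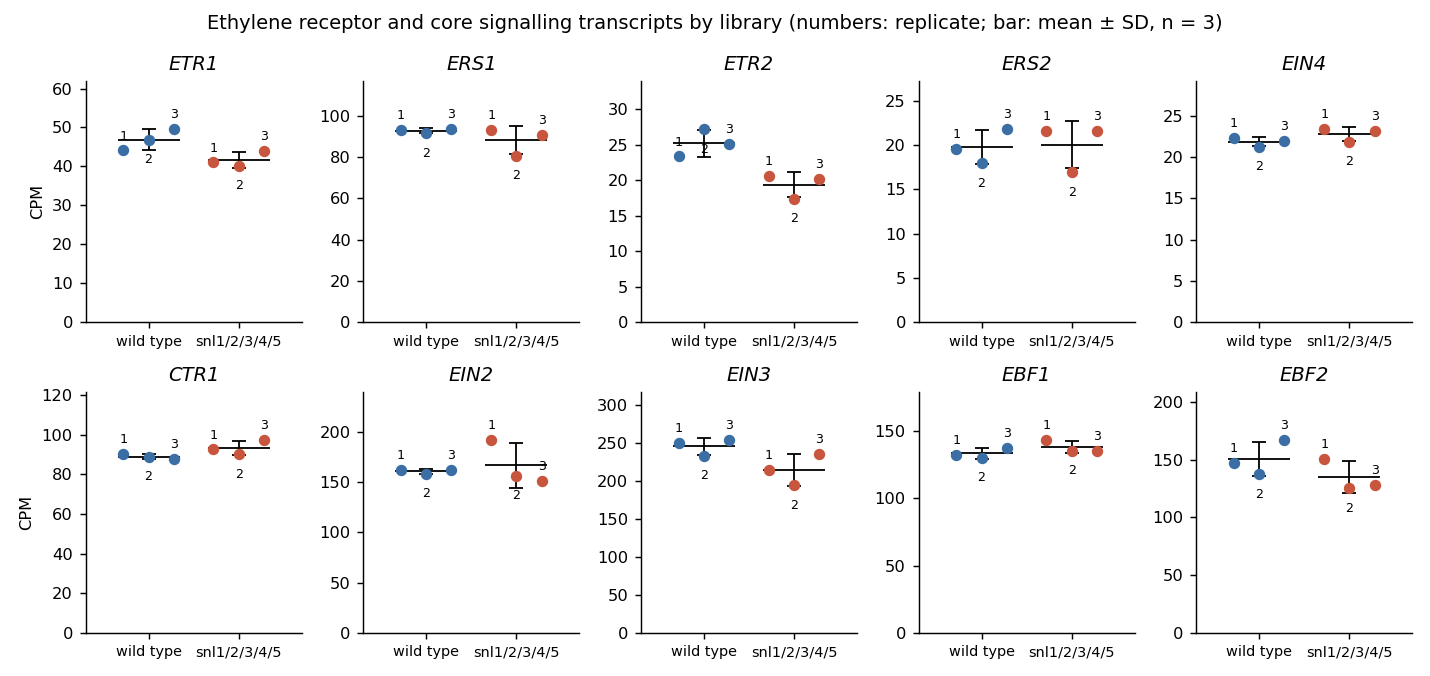
CPM (vertical axes, from 0) of the 10 genes in each of the 3 wild-type and 3 snl1/2/3/4/5 libraries, with the replicate number beside each point and the mean ± SD as a bar. ETR2 and ETR1 are the genes whose groups do not overlap, and the other 8 overlap.

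Among the receptors, ETR1 and ERS1 form subfamily I, whose proteins keep a complete histidine kinase domain. ETR1, the founding receptor of the family, on chromosome 1, had 44.1, 46.8 and 49.5 CPM in wild-type replicates 1 to 3 and 41.0, 40.1 and 43.9 CPM in mutant replicates 1 to 3. All mutant libraries were below all wild-type libraries, though the highest mutant and the lowest wild-type value lay close together. The log2 fold change was −0.17 ± 0.08 SE with a 95% interval of −0.34 to 0.0059, and the adjusted p was 0.119 (edgeR quasi-likelihood test). Groups that do not overlap were found for 49.8% of all genes tested and for 2 of the 10 genes here, ETR1 and ETR2. ERS1, on chromosome 2, encodes a receptor that lacks the receiver domain of ETR1. Its levels were 93.3, 91.5 and 93.4 CPM in the wild-type libraries and 93.1, 80.5 and 90.7 CPM in the mutant ones. Mutant replicate 2 was the low value and the groups overlapped (log2 fold change −0.07 ± 0.07 SE, interval −0.24 to 0.09, adjusted p = 0.46 by edgeR).

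Subfamily II holds ETR2, ERS2 and EIN4, whose kinase domains are degenerate. ETR2, on chromosome 3, had 353, 403 and 331 reads in the wild-type libraries and 266, 276 and 264 in the mutant ones, which is 23.3, 27.2 and 25.1 CPM against 20.6, 17.4 and 20.2 CPM. No mutant library reached the wild-type range, with wild-type replicate 2 the highest and mutant replicate 2 the lowest. The group means were 25.2 ± 1.92 and 19.4 ± 1.75 CPM (SD, n = 3), a 1.30-fold lower level (log2 fold change −0.38 ± 0.10 SE, interval −0.61 to −0.15, adjusted p = 0.0187 by edgeR's quasi-likelihood test). In size this change exceeded that of 64.6% of all genes tested. It no longer passed when wild-type replicate 2 was left out (adjusted p = 0.0624) or mutant replicate 2 was left out (0.0681), and adjusted p ranged from 0.0148 to 0.0681 over 15 alternatives.

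ERS2, on chromosome 1, which like ERS1 has no receiver domain, had 19.6, 17.9 and 21.8 CPM in the wild-type libraries and 21.6, 16.9 and 21.6 CPM in the mutant ones. These are overlapping groups with nearly equal means (log2 fold change 0.02 ± 0.12 SE, interval −0.26 to 0.29, adjusted p = 0.924 by edgeR). EIN4, on chromosome 3, which has a receiver domain like ETR1 and ETR2, had 22.4, 21.2 and 22.0 CPM against 23.4, 21.9 and 23.2 CPM. Its groups overlapped as well (log2 fold change 0.06 ± 0.08 SE, interval −0.11 to 0.23, adjusted p = 0.572 by edgeR).

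Per exon length, the receptors differed widely from each other. In wild type ERS1 stood at 38.2 ± 0.435 RPKM, the CPM divided by the exon length in kilobases (SD, n = 3), ETR1 at 16.9 ± 0.979, ETR2 at 7.80 ± 0.593, ERS2 at 7.61 ± 0.742 and EIN4 at 6.56 ± 0.171. ERS1 thus gave 49.6% ± 1.03 of the summed receptor RPKM in the wild-type libraries and 50.5% ± 0.668 in the mutant ones, and ERS1 and ETR1 together 71.5% ± 0.231 and 71.4% ± 0.561. The share of ETR2 was 9.53%, 11.0% and 9.82% in the wild-type libraries and 8.51%, 8.14% and 8.36% in the mutant ones, so that every mutant library was lower. The share of EIN4 was 8.35% to 8.85% in wild type and 9.31% to 9.92% in the mutant, again without overlap. In CPM, 49.8% of all genes tested had groups that do not overlap. A share also depends on the other receptors, and the CPM of EIN4 itself overlapped between the groups. The summed receptor RPKM was 77.0 ± 1.79 in wild type and 71.9 ± 5.02 in the mutant.

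**Figure D2:**
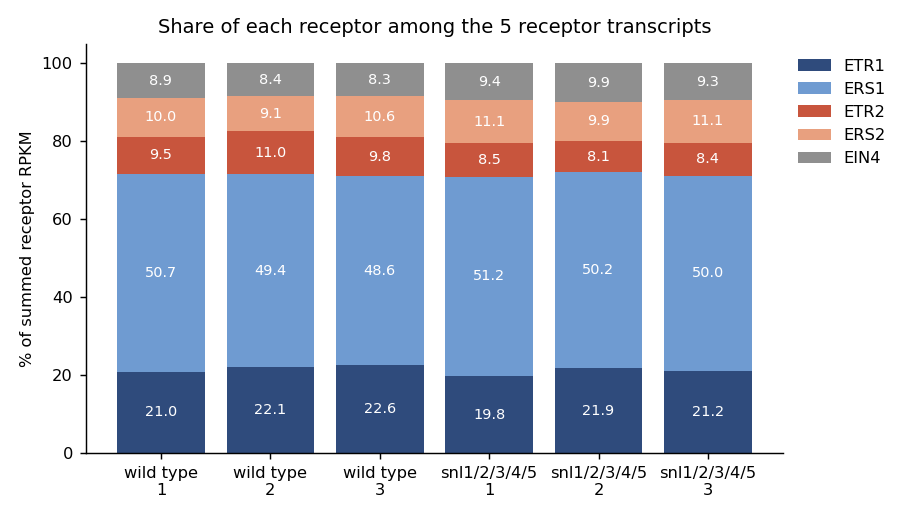
Share of each receptor gene in the summed RPKM of the 5 receptors (vertical axis, percent), 1 stacked bar per library. ERS1 holds 48.6% to 51.2% in all 6 libraries, and ETR2 falls from 9.53% to 11.0% in wild type to 8.14% to 8.51% in the mutant.

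ETR2 was also set against each other receptor within the same library, as a ratio of RPKM values. The ratio of ETR2 to ERS1 was 0.188, 0.223 and 0.202 in the wild-type libraries and 0.166, 0.162 and 0.167 in the mutant ones, a factor of 0.81. The ratio of ETR2 to EIN4 was 1.08, 1.32 and 1.18 against 0.908, 0.82 and 0.898, a factor of 0.737. Against ERS2 the factor was 0.76 and against ETR1 0.863. In all 4 ratios the mutant range lay wholly under the wild-type range. For single genes, 49.8% of all tested had groups that do not overlap in CPM, and no such share was computed for ratios. A 2-sided exact permutation test gave p = 0.1 for each, before and after adjustment over the 6 ratios computed, and 0.1 is the smallest p that this test allows with 3 against 3 libraries. These ratios were chosen after the values were seen and all share ETR2. They are therefore not separate evidence of its fall, and their p-values add nothing to the ranges.

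CTR1, on chromosome 5, encodes the kinase that the receptors keep active. It had 90.1, 88.9 and 87.7 CPM in the wild-type libraries and 92.5, 90.1 and 97.3 CPM in the mutant ones, with overlap (log2 fold change 0.07 ± 0.06 SE, interval −0.08 to 0.21, adjusted p = 0.425 by edgeR). The summed receptor RPKM was 2.73, 2.79 and 2.93 times that of CTR1 in wild type and 2.63, 2.39 and 2.5 times in the mutant. EIN2, on chromosome 5, the membrane protein that carries the signal on towards the nucleus, had 162, 158 and 163 CPM in wild type. In the mutant it had 192, 157 and 152 CPM, so that replicate 1 alone lay above the wild-type range and the other two lay below it. The log2 fold change was 0.05 ± 0.10 SE (interval −0.17 to 0.27, adjusted p = 0.705 by edgeR), and without mutant replicate 1 it was −0.06.

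EIN3, on chromosome 3, the transcription factor that starts the nuclear response, had the highest level per length of the 10 genes. Its values were 249.9, 233 and 254 CPM in the wild-type libraries and 214, 194 and 236 CPM in the mutant ones. Mutant replicates 1 and 2 were below all wild-type libraries, while mutant replicate 3 lay within the wild-type range. The log2 fold change was −0.19 ± 0.09 SE (interval −0.39 to 0.0014, adjusted p = 0.11 by edgeR), and it did not pass. Without mutant replicate 3 it was −0.27 with an adjusted p of 0.0299, the lowest of a range that reached 0.302 over 15 alternatives. In that fit 2 of the 10 genes were called, both lower, against 36.7% of all genes tested.

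EBF1 and EBF2 encode the F-box subunits of the ubiquitin ligase that marks EIN3 for destruction. EBF1, on chromosome 2, had 133, 130.1 and 138 CPM in the wild-type libraries and 143, 135 and 136 CPM in the mutant ones, with overlap (log2 fold change 0.05 ± 0.06 SE, interval −0.10 to 0.20, adjusted p = 0.576 by edgeR). EBF2, on chromosome 5, had 147, 137 and 167 CPM in the wild-type libraries and 151, 125 and 128 CPM in the mutant ones. Mutant replicate 1 lay within the wild-type range and replicates 2 and 3 below it (log2 fold change −0.16 ± 0.10 SE, interval −0.39 to 0.07, adjusted p = 0.245 by edgeR). The annotation places AT5G25340 on the opposite strand over 439 bp of EBF2 exons, and that locus had at most 1 read in any library. The ratio of EBF2 to EBF1 RPKM was 1.16, 1.10 and 1.26 in the wild-type libraries and 1.1, 0.964 and 0.986 in the mutant ones, where mutant replicate 1 lay just under wild-type replicate 2 (exact permutation p = 0.1, the smallest possible).

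**Figure D3:**
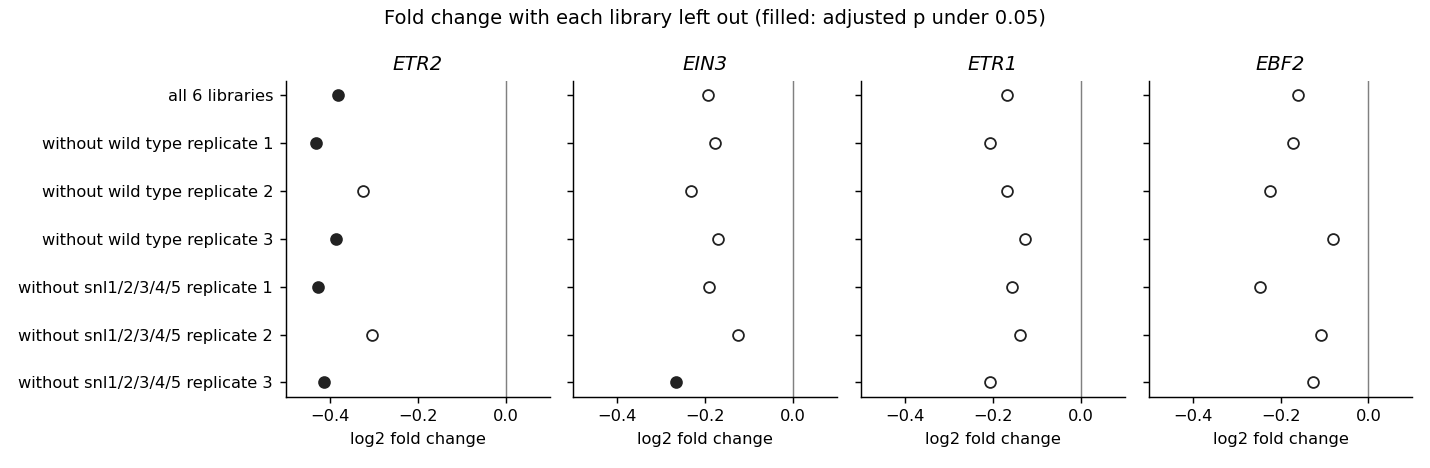
Log2 fold change (horizontal axes) of the 4 genes with the lowest values, ETR2, EIN3, ETR1 and EBF2, with all 6 libraries and with each library left out in turn, filled where the adjusted p is below 0.05. ETR2 loses its call without replicate 2 of either group, EIN3 gains one without mutant replicate 3, and ETR1 and EBF2 pass in no fit. All points lie below 0, but the genes were chosen for low values and the fits share libraries, so this is not further support.

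The order of levels per length was led in both groups by the nuclear components. In wild type EIN3 (100.3 ± 4.51 RPKM) was followed by EBF2 (51.4 ± 5.17), EBF1 (43.7 ± 1.29), ERS1, EIN2 (33.2 ± 0.454), CTR1 (27.3 ± 0.374), ETR1, ETR2, ERS2 and EIN4. Of neighbours in this order, ETR2 and ERS2 had overlapping library ranges and all others were separate. In the mutant EIN3 stood at 87.7 ± 8.52 RPKM, and the first 7 places were the same. ETR2, at 5.997 ± 0.541 RPKM, moved to the last place behind ERS2 (7.72 ± 1.03) and EIN4 (6.84 ± 0.248). In the mutant EBF2 and EBF1, ERS1 and EIN2, and ERS2 and EIN4 could not be separated by their ranges, and ETR2 lay below EIN4 in every library. Among all genes tested, the wild-type RPKM of EIN3 was above 95.7% and that of EIN4 above 41.4%.

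**Figure D4:**
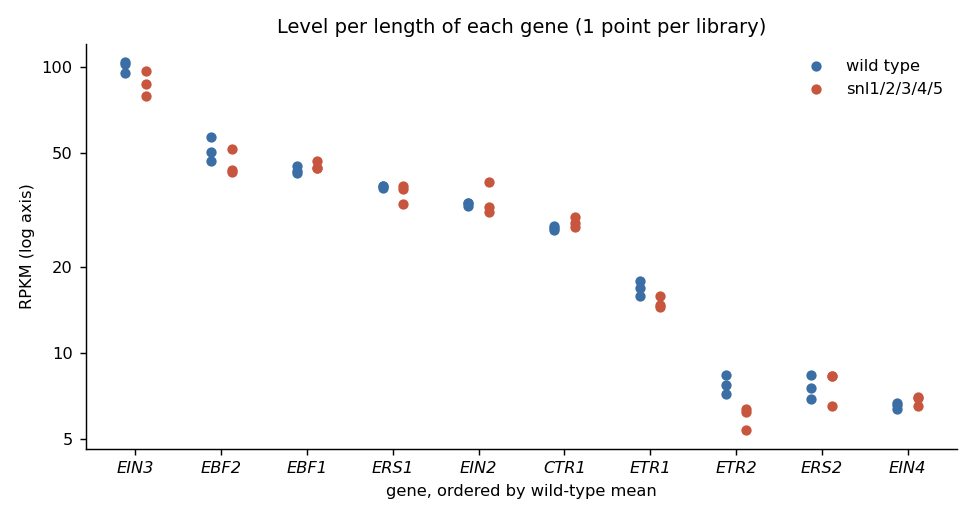
RPKM (vertical axis, logarithmic) of each gene in 3 wild-type and 3 snl1/2/3/4/5 libraries, 1 point per library, ordered by the wild-type mean. EIN3 is highest at 100.3 RPKM in wild type, and ETR2 goes from 7.80 in wild type to 5.997, below EIN4, in the mutant.

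By the likeness of their levels over the 6 libraries, the 2 genes nearest to ETR2 among 12313 with at least 10 CPM were MUG4 (AT5G16505), of a gene family derived from a transposase, and HDA15 (AT3G18520), a histone deacetylase gene. Their root mean square differences from ETR2, after centring log2 CPM on each gene's mean, were 0.029 and 0.039, against a root mean square of 0.21 for the ETR2 profile itself. Their own log2 fold changes were −0.37 and −0.39. In all, 4 genes lay within 1.5 times the smaller difference, and the likeness is a description with no test.

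Among genes that act on the receptors, 5 of 6 were tested, 1 fell and 4 did not pass, where 16.5% of all genes tested were lower. The gene that fell was RTH, a homologue of the ETR1 regulator RTE1. Its wild-type libraries had 20.2, 20.3 and 21.5 CPM and its mutant libraries 18.0, 15.7 and 15.5 CPM. That is 1.26-fold lower without overlap (adjusted p = 0.0224, edgeR). Its adjusted p was above the threshold when wild-type replicate 1 or 3 or mutant replicate 2 was left out and in both DESeq2 runs (0.0538 to 0.0801, where the lowest alternative gave 0.0129). RTE1 itself had 15.1 CPM in the wild-type libraries and 15.9 CPM in the mutant ones (adjusted p = 0.487), and RAN1, a copper transporter needed to build functional receptors, had 179.5 and 169.8 CPM (adjusted p = 0.54).

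Of 10 genes for relatives and turnover of EIN2 and EIN3, 9 were tested, 1 rose, 2 fell and 6 did not pass. The 3 calls among 9 genes are close to the 34.8% called among all genes tested. ETP1, an F-box gene whose protein targets EIN2 for destruction, had 46.1, 46.4 and 44.1 CPM in the wild-type libraries and 30.7, 31.3 and 34.3 CPM in the mutant ones. It was 1.42-fold lower with a wide gap between groups (log2 fold change −0.50 ± 0.07 SE, adjusted p = 0.00186, edgeR). Its paralogue ETP2 had 8.58 and 8.81 CPM (adjusted p = 0.863). XRN4, also called EIN5, an exoribonuclease that limits EBF1 and EBF2 transcripts, had 68.7, 67.4 and 73.1 CPM in the wild-type libraries and 57.8, 56.9 and 56.2 CPM in the mutant ones, 1.22-fold lower (adjusted p = 0.0104, edgeR). The ETP1 and XRN4 calls held in all 15 alternatives, with adjusted p up to 0.0148 and 0.0439.

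EIL1, the closest relative of EIN3, had 114, 110.2 and 116 CPM in the wild-type libraries and 141, 124 and 129.5 CPM in the mutant ones. Every mutant library was higher, by 1.16-fold on average, and the adjusted p of 0.048 (edgeR) passed with all libraries but lay between 0.0509 and 0.143 with any 1 library left out. It was also above the threshold when scaled by library totals, without the filter on low counts, with limma-voom, with both DESeq2 runs and with a replicate block (0.0517 to 0.0776). The ratio of EIL1 to EIN3 RPKM was 0.474, 0.49 and 0.473 in the wild-type libraries and 0.681, 0.662 and 0.569 in the mutant ones, 1.33 times higher with no overlap. The exact permutation p was 0.1, the smallest possible, and this ratio too was chosen after the values were seen.

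Genes known to respond to ethylene moved in both directions. Of 17 listed, 15 were tested, 3 rose, 5 fell and 7 did not pass, beside 18.3% higher and 16.5% lower among all genes tested. PR4, which encodes a hevein-like defence protein, had 47.9, 57.5 and 51.6 CPM in the wild-type libraries and 164, 163 and 128 CPM in the mutant ones, 2.90-fold higher (adjusted p = 0.000197, edgeR). The basic chitinase gene HCHIB stood at 6.86 ± 0.745 CPM in wild type and rose 3.06-fold to 20.9 ± 4.15 CPM (adjusted p = 0.000456, edgeR), and an annotated gene, AT3G12502, overlaps it on the opposite strand. The defensin gene PDF1.2a had 0, 3 and 0 reads in the wild-type libraries and 9, 30 and 20 in the mutant ones (adjusted p = 0.00524, edgeR). It passed the filter on low counts only through the mutant libraries, where it was high. Its call, counted among the 3 that rose, is therefore not independent of that filter and is given as a description. All its wild-type reads came from replicate 2, so no fold against the other two libraries is given, and it was not tested without mutant replicate 2 or with a minimum of 1 CPM in 3 libraries. Summed, 3 wild-type and 59 mutant reads gave a ratio of 20.3 with an exact (Clopper-Pearson) 95% interval of 6.60 to 101 that covers counting error only. These 3 genes also respond to jasmonate.

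The 5 genes that fell were all for transcription factors. ERF6, of the ERF family, had 88.2, 66.7 and 93.0 CPM in the wild-type libraries and 33.0, 26.0 and 57.8 CPM in the mutant ones, 2.13-fold lower (adjusted p = 0.0144, edgeR). EDF2, also named RAV2 or TEM2, a repressor with AP2 and B3 domains, had 301, 324 and 264.5 CPM in the wild-type libraries and 232, 197 and 245.5 CPM in the mutant ones, 1.32-fold lower (adjusted p = 0.0206, edgeR). The others, named after their values were seen, were RAV1 (1.42-fold), ERF104 (1.62-fold) and EDF1, also named TEM1 (1.36-fold). The groups of EDF1 overlapped, with mutant replicate 3 at 121.4 CPM above wild-type replicate 3 at 117.6 CPM. In ERF6, EDF1, EDF2, RAV1 and ERF104, mutant replicate 3 was the highest of the mutant libraries. All 5 calls were lost without wild-type replicate 1 (adjusted p = 0.0528 to 0.121), and the count of lower genes ranged from 0 to 6 as single libraries were left out. ERF1, a direct target of EIN3, had 13, 2 and 10 reads in the wild-type libraries and 7, 13 and 6 in the mutant ones (adjusted p = 0.917).

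Of 14 genes of ethylene synthesis, 12 were tested, 2 rose, 0 fell and 10 did not pass (edgeR). The 2 higher genes of 12 are close to the 18.3% that were higher among all genes tested. At an unadjusted p under 0.05 there were likewise 0 lower. Both that rose encode ACC oxidases, which make ethylene in the last step of the pathway. ACO5 had 39.9, 41.6 and 52.6 CPM in the wild-type libraries and 80.8, 71.0 and 77.2 CPM in the mutant ones, 1.71-fold higher (adjusted p = 0.00174, edgeR). ACO4 had 453, 446 and 426 CPM against 604, 593 and 692 CPM, 1.42-fold higher (adjusted p = 0.00283, edgeR). Neither gene's groups overlapped, and an annotated gene, AT1G77320, overlaps ACO5 on the opposite strand. Both calls held in all 15 alternatives, with adjusted p up to 0.0184. The ACC synthase gene ACS6, known for its response to stress, had 133 and 125 CPM (adjusted p = 0.785).

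**Figure D5:**
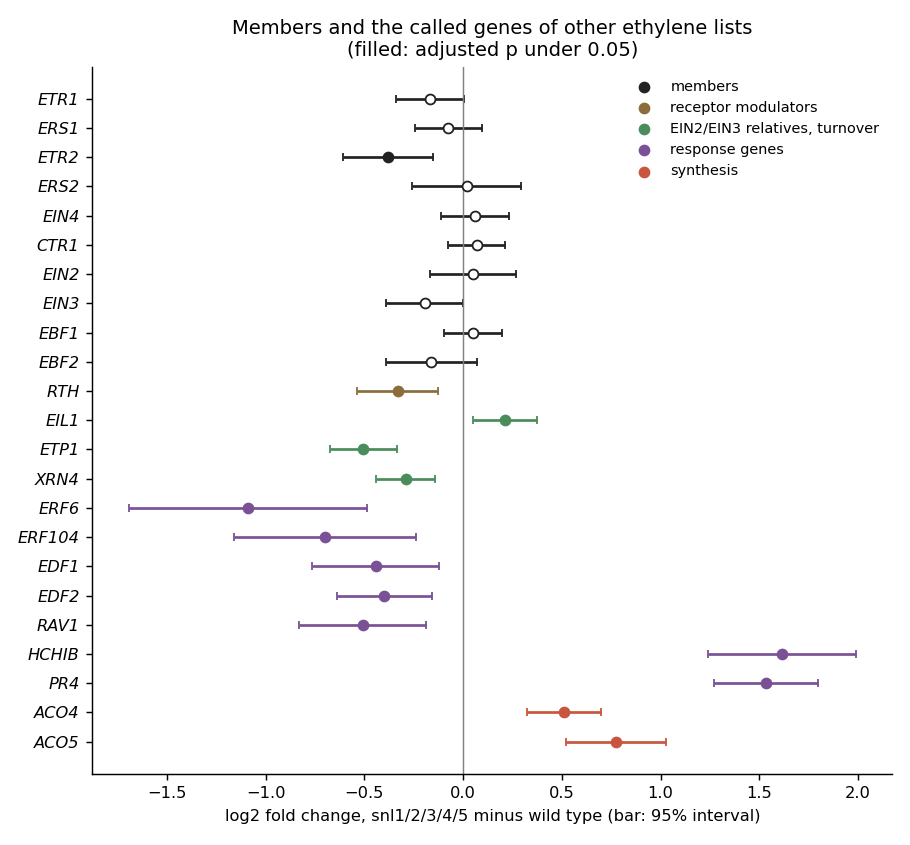
Log2 fold change, snl1/2/3/4/5 minus wild type (horizontal axis), with its 95% interval for the 10 signalling genes and for the called genes of the other ethylene lists except PDF1.2a, filled where the adjusted p is below 0.05. The 10 signalling genes, shown whether called or not, lie between −0.38 and 0.07. The response genes shown reach from −1.09 for ERF6 to 1.61 for HCHIB. Those that did not pass are left out, so the spreads of the lists cannot be compared here.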

How the data were processed

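Per the labels' protocols, each of the 3 wild-type and 3 mutant libraries was made with a directional kit from 1.0 µg RNA, and the replicates are biological per the design text. The submitters' processing notes name cutadapt 1.4, TopHat, HTSeq, edgeR and the TAIR10 genome; the strand setting and other versions are not given. The authors deposited whole-number counts per locus with no normalization. Their 2 deposited gene tables, higher and lower, give a log2 fold change and an adjusted p-value. The other 24 columns of these tables, which hold values per library, were not used.

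Genes were kept with filterByExpr (minimum count 10, minimum total 15), scaled by TMM and tested with edgeR 4.0.16 (glmQLFit, glmQLFTest) in R 4.3.3, with Benjamini-Hochberg adjustment over 19591 genes and a threshold of 0.05. CPM use TMM-scaled totals, RPKM the exon union length of RefSeq TAIR10.1, which matched 32835 of 33602 loci. A BLAST 2.17.0 search (95% identity over 100 bp) found no near-identical locus for any named ethylene gene. Alternatives changed scaling (DESeq2 1.42.0 size factors or library totals), the loci kept (no filter, 1 CPM in 3 libraries, or no organelle loci), the test (voom in limma 3.58.1, default DESeq2), the design (a replicate block) or the libraries (each left out). The DESeq2 test alone was added after the data were seen. The members, lists and other alternatives were chosen with earlier results of these data known. Named genes are the 10 members, up to 5 called genes of each other list by adjusted p, and the 2 nearest profiles of a called member. Outside this rule, RTE1, RAN1, ETP2, ERF1 and ACS6 were named though not called. ENAP1 and ACO3 were dropped, since their symbols matched no locus in the table used. The sequences of these genes are not shown. A gene of the fixed lists is not reported here.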

Additional observations from a re-analysis of the deposited data

How the results depend on the processing

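Of 150 values for the 10 genes under 15 alternatives, 143 kept their direction and side of the threshold. The ETR2 call was lost when replicate 2 of either group was left out (log2 fold changes −0.32 and −0.30), and EIN3 passed without mutant replicate 3 (−0.27). Values with no call changed sign for ERS2 without wild-type replicate 2 or mutant replicate 1 or 3 (range over left-out libraries −0.049 to 0.13) and for EIN2 without mutant replicate 1 (−0.062 to 0.12). The cause was not tested. As single libraries were left out, all genes called ranged from 2290 to 3806 higher and 1757 to 3511 lower, and the 10 genes from 0 to 0 higher and 0 to 2 lower. Over the same settings the lower genes ranged from 0 to 1 for receptor modulators, 0 to 6 for response genes and 2 to 2 for relatives and turnover of EIN2 and EIN3, where the 1 higher gene, EIL1, became 0 each time. Higher response genes ranged from 2 to 4 and higher synthesis genes from 2 to 3.

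The main test did not pair libraries by replicate number. Correlations of deviations were 0.01, 0.15 and −0.06 for replicates 1 to 3, and −0.13 to 0.13 between libraries of different numbers. With 3 libraries per group these values do not decide whether replicates of 1 number shared a batch. With a replicate block 3106 genes were higher and 2768 lower, with 1 of the 10 genes, ETR2, lower (adjusted p = 0.046, edgeR). The replicate block ended the calls of EIL1, EDF1 and EDF2, and ERF5, named after its values were seen, gained one as lower (adjusted p = 0.0155 against 0.0526 without the block). ERF5 also passed in other alternatives, among them library totals (adjusted p = 0.0433), no filter on low counts (0.0335), limma-voom (0.0479) and both DESeq2 runs (0.0125 and 0.0111). In some alternatives it did not pass, and its adjusted p ranged from 0.00851 to 0.176. On the log2 scale the median of all genes moved by −0.0014 with DESeq2 size factors, −0.0025 with library totals and −0.0099 with no filter on low counts. With 264 to 403 reads per library, ETR2 rests on fewer reads than EIN3 (2762 to 3779). Using the longest transcript as the length changed the wild-type RPKM of no gene by more than its SD.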
